A study of Rattus norvegicus with 6 samples.

Results

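The constitutive proteasome genes were followed in cultured rat cardiac fibroblasts in which the microRNA miR-142-3p was targeted. They were chosen by gene symbol, as the rows of the expression table whose symbol starts with Psma to Psmg followed by a digit. The inducible genes Psmb8, Psmb9, Psmb10, Psme1 and Psme2 were left out. This choice was made with earlier results of these data known. The rule found 42 of the 30560 genes in the table. Of these, 39 encode proteasome subunits, assembly chaperones or regulators. The other 3 match by symbol only, and Psmc3ip, a meiotic recombination factor, Psme3ip1, which encodes a binding partner of a proteasome activator, and the pseudogene Psme1-ps1 were kept apart. Psma3, Psmb11, Psmd9 and Psmd10 were not analysed here.

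The cells were primary ventricular fibroblasts of newborn Sprague-Dawley rats, taken at an age of 1 to 2 days and selected by their early attachment to the dish. All cultures were kept overnight without serum and received 50 nM of an oligonucleotide with a lipid transfection reagent. One group (3 libraries) received an antagomiR, a chemically modified antisense oligonucleotide that blocks a mature microRNA, against miR-142-3p. The other (3 libraries) received a negative control oligonucleotide (NC), so no group was left untransfected. No label says whether the 3 libraries of a group came from separate cell isolations or animals, and p-values therefore measure the spread between these libraries, which may be technical.

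The microRNA that was targeted is shown because the grouping of all libraries rests on it, with its seed (bases 2 to 8) in capitals, from RefSeq (GRCr8).
rno-miR-142-3p: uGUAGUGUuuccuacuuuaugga

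Libraries of polyadenylated RNA do not measure the mature microRNA. The precursor gene Mir142 had 2.78, 1.11 and 1.37 FPKM in NC replicates 1 to 3 and 2.84, 1.83 and 3.15 FPKM in antagomiR replicates 1 to 3, from 3 to 8 fragments each, which is no check of the silencing. FPKM scales the fragments of a gene to its length and to the library total. Library totals ran from 19472409 to 24622667 fragments. The fibroblast markers Col1a1, Col1a2, Col3a1 and Fn1 stood at 2429 FPKM or more in every library. The other fibroblast markers, Postn, Ddr2, Lum, Tcf21, Dcn and Pdgfra, were lower, and each was higher in every antagomiR library than in any NC library. They ran from 1.02 FPKM (Lum, NC replicate 1) to 1344 FPKM (Postn, antagomiR replicate 1). The endothelial marker Emcn was listed at 0 in every library and 5 of 7 endothelial markers lay under the limit for testing. All 15 leukocyte markers were present, with summed levels of 149, 220 and 765 FPKM in NC replicates 1 to 3 and of 999 to 1114 FPKM in the antagomiR replicates. Each of the 15 was highest in NC replicate 3 among the NC libraries, so that this control stands apart. For Mrc1, C1qa, C1qb, Cd74 and Cd68 it also lay above every antagomiR library. Cardiomyocyte markers summed to 296 to 431 FPKM, most of it from Tnnt2 (227 to 364 FPKM) and Nppa (48.9 to 59.8 FPKM). Myh6, Myh7, Actn2, Tnni3 and Ryr2 each stayed at 8.08 FPKM or less. Of 10 fibroblast markers 6 rose and 1 fell, of 15 leukocyte markers 7 rose, and of 6 smooth muscle markers 5 fell, by the limma test used for all genes, of which 17.5% rose and 9.21% fell. Without NC replicate 3, 14 of the 15 leukocyte markers rose, where 26.5% of all genes rose. The part of such shifts in the results was not tested. In such bulk libraries, fewer cells of a type and less RNA per cell cannot be told apart.

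The proteasome is the large protease that degrades proteins tagged with ubiquitin. Its 20S core is a barrel of outer alpha rings, which gate the entrance, and inner beta rings, in which Psmb5, Psmb6 and Psmb7 encode the catalytic subunits. The 19S regulatory particle caps the barrel, binds ubiquitin chains and unfolds substrates with a ring of ATPases. Under inflammatory signals cells can exchange the catalytic subunits for the inducible Psmb8, Psmb9 and Psmb10, which makes the immunoproteasome, and can attach the PA28 activator encoded by Psme1 and Psme2. Transcription of the constitutive genes is known to be raised together by the factor encoded by Nfe2l1 when proteasome activity is short.

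As a group the constitutive genes stayed close to their control level. The test was limma on log2(FPKM + 1), two-sided, on genes averaging 1 FPKM or more across all 6 libraries, with Benjamini-Hochberg adjustment over all 12024 genes tested, and a gene is said to have risen or fallen at an adjusted p under 0.05. Of the 39 proteasome genes, 38 passed that limit on level. Of these 38, 3 rose and 0 fell, or 7.89% and 0%. Over all genes tested the shares were 17.5% risen and 9.21% fallen. Among the 5470 tested genes within the members' range of mean level, 9.81 to 112.2 FPKM, they were 18.3% and 11.0%. The median of mean levels was 21 FPKM for those 5470 genes and 48.25 FPKM for the 38, so level was only partly matched. At an unadjusted p under 0.05 there were 8 of the 38, where 39.2% of all genes tested passed that limit. By limma voom on fragment counts recovered from the FPKM values, 3 rose and 0 fell again. The risen genes were Psma6, Psmd1 and Psmf1, and their log2 fold changes of 0.30, 0.17 and 0.21 were lower under both other scalings tried. With median-ratio scaling 0 of the 3 passed the threshold, and with quantile normalization Psma6 did.

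The changes were small throughout. The ratio of the antagomiR mean to the NC mean ran from 0.879 for Psmd8 to 1.23 for Psma6. The median log2 fold change of the 38 genes was 0.09, against 0.06 for all genes tested. The 95% intervals, which cover the spread between libraries, lay inside a 1.5-fold change in either direction for all 38 genes, against 76.5% of all genes tested and 83.3% of those in the members' range of level. The widest reach of an interval was to 0.51 for Psmb6 on the upper side and to -0.36 for Psmd8 on the lower side, where 1.5-fold is 0.58 on the log2 scale.

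**Figure D1:**
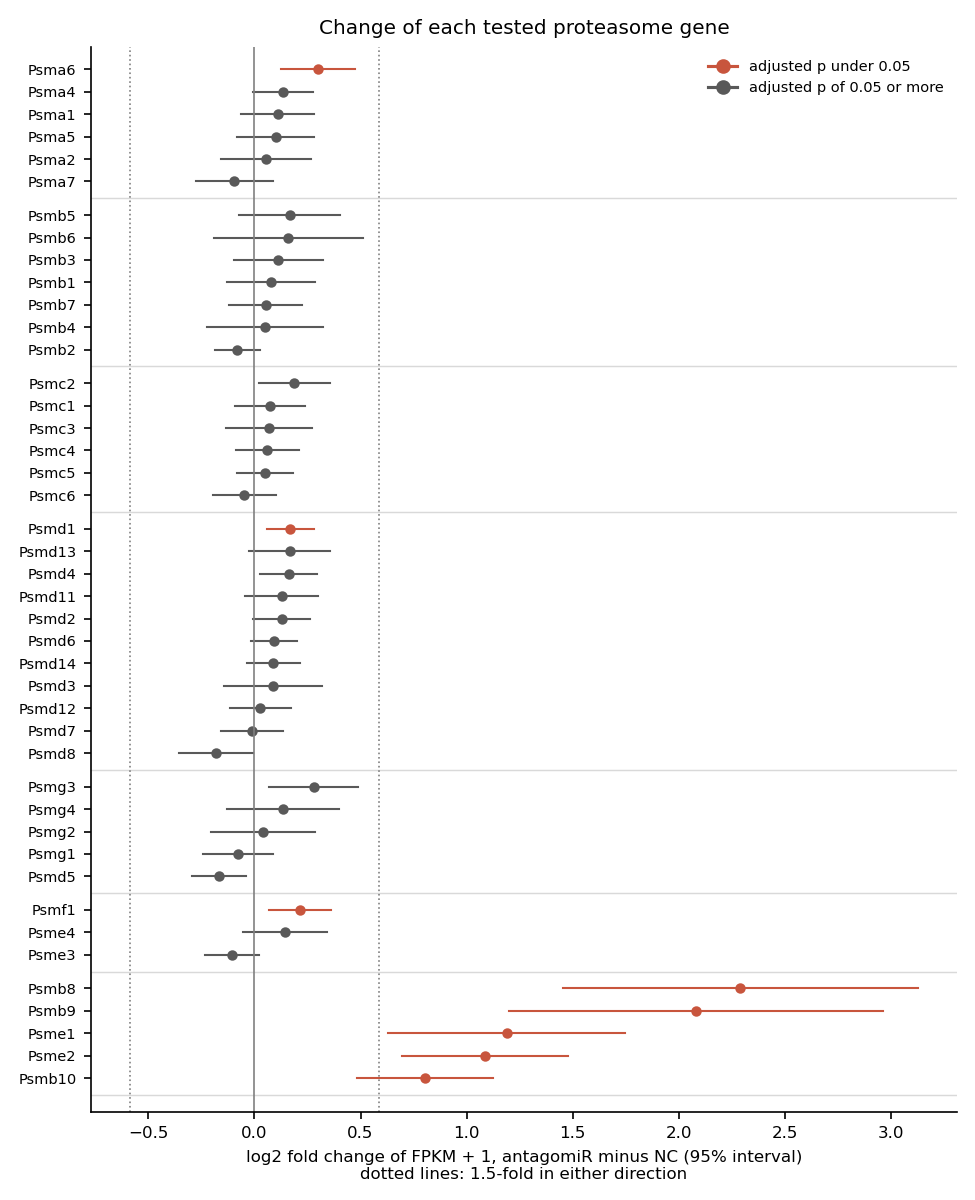
Log2 fold change (antagomiR minus NC, FPKM + 1) of the 38 tested constitutive genes and of the 5 inducible genes, with 95% intervals from limma, grouped from top to bottom as alpha ring, beta ring, 19S ATPases, 19S non-ATPase subunits, assembly chaperones, activators and inhibitor, and inducible genes. Only Psma6, Psmd1 and Psmf1 among the constitutive genes are drawn in the colour of an adjusted p under 0.05, and all 5 inducible genes lie to the right of them.

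Scaling between libraries bears on changes of this size. Median-ratio scaling, which sets the typical gene to no change, moved the median of all genes from 0.06 to 0.00 and that of the 38 proteasome genes to 0.02. Under it 0 proteasome genes rose and 2, Psmd5 and Psmd8, fell, where 13.1% of all genes rose and 12.3% fell. Under quantile normalization Psma6 rose and Psmd5 and Psmd8 fell, beside 11.8% of all genes risen and 15.5% fallen.

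Overlap of the FPKM values was counted as well, since it uses no estimate of spread. The antagomiR libraries all lay above the NC libraries for 8 of the 38 genes and all below for 3, where all genes tested gave 29.2% above and 15.4% below. In the alpha, beta and ATPase rings together only Psma6 had higher and only Psmb2 lower antagomiR values without overlap. Among the 11 non-ATPase subunits of the 19S particle 5 had higher values without overlap, namely Psmd1, Psmd2, Psmd4, Psmd6 and Psmd14.

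Levels spread widely between genes. The beta ring genes had the highest median of mean levels, 105.5 FPKM (7 genes, 54.2 to 112.2 FPKM). The alpha ring genes had a median of 56.8 FPKM (6 tested genes, 25.7 to 104.5 FPKM), the ATPases of 55.8 FPKM (6 genes, 37.8 to 97.4 FPKM) and the non-ATPase subunits of 52.4 FPKM (11 genes, 29.4 to 85.4 FPKM). Assembly chaperones, which act on particles being built and leave the finished ones, stood lowest at a median of 19.1 FPKM (5 genes, 9.81 to 20.3 FPKM). Summed over the 38 genes, the level was 1971, 2041 and 2232 FPKM in NC replicates 1 to 3 and 2249, 2113 and 2201 FPKM in antagomiR replicates 1 to 3. The groups overlap in that sum, since NC replicate 3 lay above antagomiR replicates 2 and 3.

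**Figure D2:**
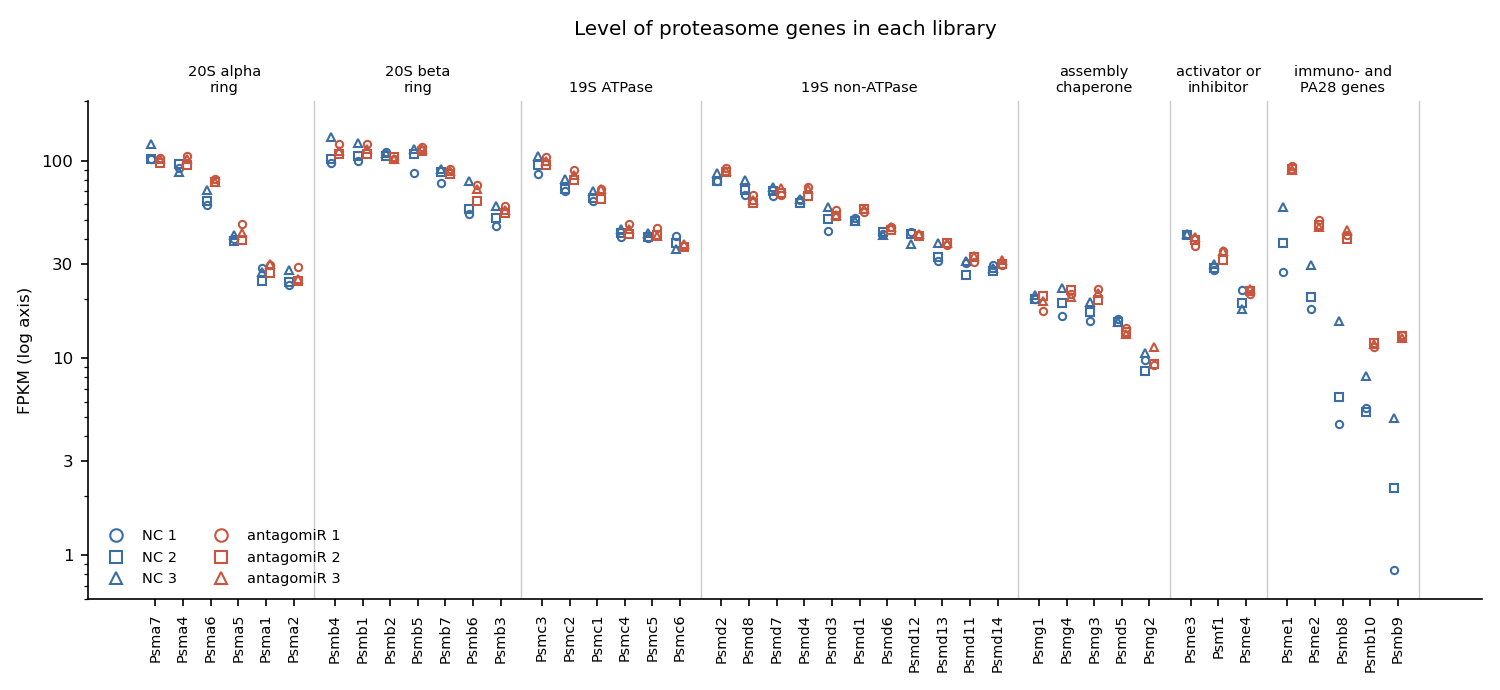
FPKM (log axis) of each tested proteasome gene in each of the 6 libraries, ordered within each role by the NC mean, with NC in blue and antagomiR in red and a symbol for each replicate. The constitutive genes sit between 8.63 and 132 FPKM with both groups close together, whereas the inducible genes at the right separate by group, with NC replicate 3 nearest to the antagomiR libraries.

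In the alpha ring, Psma6 was the one gene that rose. Psma6 (ENSRNOG00000007114; chromosome 6, 72765473 to 72796554 in mRatBN7.2) encodes a subunit of the ring that gates the core. It measured 59.3, 62.2 and 71.1 FPKM in NC replicates 1 to 3 and 81.0, 78.0 and 77.9 FPKM in antagomiR replicates 1 to 3. Every antagomiR library was above every NC library, and NC replicate 3 came nearest. The log2 fold change was 0.30 ± 0.07 (SE; limma adjusted p = 0.0231). It was 0.23 with median-ratio scaling (adjusted p = 0.0584), and leaving out any single library other than NC replicate 3 brought the adjusted p to between 0.0528 (NC replicate 1) and 0.0882 (antagomiR replicate 1).

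The other alpha ring genes did not pass the test. Psma4 measured 92.2, 96.0 and 87.7 FPKM under the control oligonucleotide and 105.9, 95.3 and 102 FPKM under the antagomiR, with a log2 fold change of 0.13 (adjusted p = 0.148 by limma). Psma7 had the lowest estimate of the ring, -0.10 (adjusted p = 0.409 by limma), with 101, 102 and 121 FPKM under the control oligonucleotide and 103, 97.7 and 102 FPKM under the antagomiR. For both genes the groups overlap, and for Psma7 the high NC mean rests on NC replicate 3, without which the log2 fold change was -0.01. Psma1, Psma2 and Psma5 had log2 fold changes of 0.11, 0.05 and 0.10. Psma8 encodes the alpha subunit of the testis proteasome and stands in place of Psma7 there. It had 0 fragments in all 3 NC libraries, where 3 fragments would be 0.0701 to 0.0873 FPKM, and 3, 2 and 2 fragments (0.0763, 0.0459 and 0.0494 FPKM) in the antagomiR libraries, so it was not tested.

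Of the 7 beta ring genes 0 passed the test, the catalytic subunits included. Psmb5 (ENSRNOG00000013386; chromosome 15, 28072781 to 28077440) encodes the subunit with chymotrypsin-like activity. Its levels were 86.7, 108 and 114 FPKM under the control oligonucleotide and 117, 112 and 115 FPKM under the antagomiR. Only NC replicate 1 lay clearly below the other libraries, and the log2 fold change was 0.17 with a 95% interval from -0.07 to 0.40 (adjusted p = 0.267 by limma).

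Psmb6 (ENSRNOG00000019551; chromosome 10, 55239241 to 55241586), the subunit with caspase-like activity, measured 53.3, 56.8 and 79.2 FPKM under the control oligonucleotide and 74.8, 62.7 and 71.8 FPKM under the antagomiR. NC replicate 3 was the highest of all 6 libraries, and the interval of the log2 fold change, -0.19 to 0.51 around 0.16, was the widest of the 38 genes. Psmb7 (ENSRNOG00000011732; chromosome 3, 22354698 to 22417937), the subunit with trypsin-like activity, measured 76.7, 88.0 and 91.0 FPKM under the control oligonucleotide and 90.3, 86.0 and 88.4 FPKM under the antagomiR. Its groups overlap, with a log2 fold change of 0.05 (interval -0.12 to 0.22). Psmb2, a subunit without catalytic activity, had the lowest estimate of the ring at -0.08 (adjusted p = 0.243 by limma). It measured 110.5, 106 and 109 FPKM under the control oligonucleotide and 102, 104 and 101 FPKM under the antagomiR, lower in every antagomiR library. Psmb1, Psmb3 and Psmb4 had log2 fold changes of 0.08, 0.11 and 0.05, and for each of them NC replicate 3 was the highest library.

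The inducible genes that stand against these subunits all rose. The log2 fold change was 2.29 ± 0.35 for Psmb8, 2.08 ± 0.37 for Psmb9, 0.80 ± 0.14 for Psmb10, 1.19 ± 0.24 for Psme1 and 1.09 ± 0.17 for Psme2 (SE; limma adjusted p between 0.00353 and 0.0106), and they also rose under both other scalings. They were set beside the constitutive genes with their rise already known, so it is given as a description. Psmb8, the partner of Psmb5, measured 4.62, 6.37 and 15.4 FPKM under the control oligonucleotide and 41.7, 40.0 and 44.4 FPKM under the antagomiR. Psmb9, the partner of Psmb6, measured 0.842, 2.21 and 4.96 FPKM under the control oligonucleotide and 13.0, 12.9 and 12.6 FPKM under the antagomiR. All antagomiR libraries were above all NC libraries for each of the 5 genes, and NC replicate 3 was the highest NC library for each.

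The ratio of an inducible gene to a constitutive gene within a library does not depend on any factor that scales a whole library. The log2 ratio of Psmb8 to Psmb5 was -4.23, -4.08 and -2.89 in NC and -1.49, -1.48 and -1.37 with the antagomiR, a mean difference of 2.28. The log2 ratio of Psmb9 to Psmb6 was -5.98, -4.69 and -4.00 in NC and -2.52, -2.28 and -2.51 with the antagomiR, a mean difference of 2.45. For Psmb10 to Psmb7 the difference was 0.85. Psme1 and Psme2 were set against Psme3, which encodes a separate activator, and the differences were 1.32 and 1.23. In all 5 pairs every antagomiR ratio was above every NC ratio. The exact two-sided permutation test gave p = 0.1 for each pair, adjusted p = 0.1 over the 5 pairs, which is the smallest value that 3 libraries against 3 allow, so that no pair could pass 0.05. Without NC replicate 3 the differences were between 0.99 and 2.90.

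Summed over the 3 pairs of catalytic genes, the inducible genes took 4.85%, 5.23% and 9.10% of the FPKM in NC replicates 1 to 3 and 18.97%, 19.91% and 19.98% in antagomiR replicates 1 to 3. The constitutive sum was 217, 252 and 284 FPKM under the control oligonucleotide and 282, 261 and 275 FPKM under the antagomiR, so the constitutive sums of the groups overlap, with NC replicate 3 the highest of all, while the inducible shares do not. Summed leukocyte marker levels had the same order as the inducible share in NC (149, 220 and 765 FPKM) and were higher in all antagomiR libraries (1114, 999 and 1054 FPKM). Within the antagomiR group the order differed, since replicate 1 had the highest sum and the lowest share. Lyz2 was the largest part of the sum, at 390 FPKM in NC replicate 3 and 484 to 566 FPKM with the antagomiR. Mrc1, C1qa, C1qb, Cd74 and Cd68 were higher in NC replicate 3 than in any antagomiR library. The other leukocyte markers were higher in every antagomiR library. The part of these cells in the result was not tested.

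**Figure D3:**
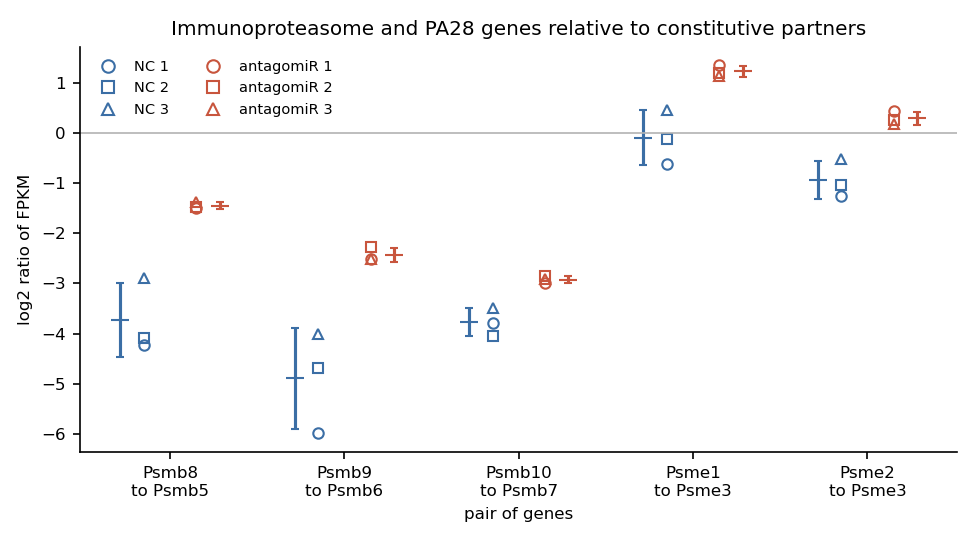
Log2 ratio of the FPKM of an inducible gene to that of a constitutive gene in each library, with the mean and SD of each group (n = 3) drawn beside the points. In all 5 pairs the antagomiR libraries lie above the NC libraries, and NC replicate 3 is the NC library nearest to them.

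Among the 6 ATPases of the 19S particle, which unfold substrates and open the core, 0 passed the test. Psmc2 came nearest, at 70.4, 71.6 and 80.3 FPKM under the control oligonucleotide and 89.1, 79.9 and 84.6 FPKM under the antagomiR. Its groups overlap through NC replicate 3, and the log2 fold change was 0.19 ± 0.07 (SE; limma adjusted p = 0.0911). Psmc1 measured 62.3, 64.7 and 70.1 FPKM under the control oligonucleotide and 71.7, 64.1 and 72.2 FPKM under the antagomiR, with overlapping groups and a log2 fold change of 0.08. Psmc6 had the lowest estimate, -0.05, with 41.4, 38.2 and 35.8 FPKM under the control oligonucleotide and 37.0, 36.6 and 37.9 FPKM under the antagomiR. Here NC replicate 3 was the lowest library and the antagomiR libraries lay inside the NC range. Psmc3, Psmc4 and Psmc5 had log2 fold changes of 0.07, 0.06 and 0.05.

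Of the 11 non-ATPase subunits of the 19S particle 1 rose, Psmd1. Psmd1 (ENSRNOG00000017730; chromosome 9, 86709947 to 86785211) encodes the large scaffold subunit of the base of the particle. It measured 50.9, 49.3 and 49.2 FPKM under the control oligonucleotide and 54.6, 56.7 and 57.0 FPKM under the antagomiR. The groups are tight and apart, and NC replicate 3 does not stand out. The log2 fold change was 0.17 ± 0.05 (SE; limma adjusted p = 0.0352), and it was 0.10 with median-ratio scaling (adjusted p = 0.153). Without NC replicate 2 or antagomiR replicate 1, 2 or 3 the adjusted p was between 0.0768 and 0.149.

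Psmd4, a ubiquitin receptor of the particle, measured 63.3, 60.9 and 64.1 FPKM under the control oligonucleotide and 73.6, 66.0 and 71.5 FPKM under the antagomiR. Its groups did not overlap but it did not pass the test, with a log2 fold change of 0.16 (adjusted p = 0.0811 by limma). Psmd8 had the lowest log2 fold change of all 38 genes, -0.18 (adjusted p = 0.119 by limma). It measured 66.7, 71.2 and 79.3 FPKM under the control oligonucleotide and 66.9, 61.2 and 62.9 FPKM under the antagomiR, where antagomiR replicate 1 lies at the level of NC replicate 1. With median-ratio scaling it was -0.25 (adjusted p = 0.0495) and without NC replicate 3 it was -0.11. Psmd14, the deubiquitinating enzyme of the lid, had a log2 fold change of 0.09 and did not pass. The remaining 7 non-ATPase subunits lay between -0.01 for Psmd7 and 0.17 for Psmd13.

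Of the 5 assembly chaperones 0 passed the test. Psmg3, one of the chaperones that build the alpha ring, measured 15.4, 17.1 and 19.2 FPKM under the control oligonucleotide and 22.4, 19.6 and 21.3 FPKM under the antagomiR. Its log2 fold change was 0.28 ± 0.09 (SE; limma adjusted p = 0.0577), the largest after Psma6. Psmd5, a chaperone of the ATPase ring that leaves the finished particle, measured 15.8, 15.2 and 15.2 FPKM under the control oligonucleotide and 14.2, 13.6 and 13.2 FPKM under the antagomiR. The groups are apart and the log2 fold change was -0.17 (adjusted p = 0.0617 by limma), and Psmd5 fell when median-ratio scaling was used (-0.23, adjusted p = 0.0202). Leaving out NC replicate 3 gave -0.17 as well (adjusted p = 0.0416). Psmg1, Psmg2 and Psmg4 had log2 fold changes of -0.08, 0.04 and 0.13.

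Among the regulators of the core Psmf1 rose. Psmf1 (ENSRNOG00000009640; chromosome 3, 140235373 to 140260546) encodes PI31, first described as an inhibitor of the core particle. It measured 27.9, 28.5 and 30.1 FPKM under the control oligonucleotide and 34.8, 31.3 and 34.7 FPKM under the antagomiR. All antagomiR libraries were higher, antagomiR replicate 2 by the least, and the log2 fold change was 0.21 ± 0.06 (SE; limma adjusted p = 0.0424). It was 0.15 with median-ratio scaling (adjusted p = 0.128), and without NC replicate 1 or 2 or antagomiR replicate 1 or 3 the adjusted p was between 0.101 and 0.161. Psme3, the nuclear PA28 gamma activator, had estimates on the other side, with 42.3, 41.7 and 42.4 FPKM under the control oligonucleotide and 36.9, 39.6 and 41.0 FPKM under the antagomiR (log2 fold change -0.10, adjusted p = 0.2 by limma). Psme4, which encodes the activator PA200, had a log2 fold change of 0.14 with an interval from -0.05 to 0.34.

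The 3 rows that share only the symbol pattern had larger log2 fold changes than any of the 38 proteasome genes. Psme3ip1 rose from 13.1, 12.7 and 17.1 FPKM under the control oligonucleotide to 21.1, 20.01 and 20.1 FPKM (log2 fold change 0.50, limma adjusted p = 0.0144), also under both other scalings. Without NC replicate 2 or antagomiR replicate 1 or 3 its adjusted p was between 0.052 and 0.0596. Psmc3ip had a log2 fold change of 0.42 (adjusted p = 0.0574 by limma) at 3.11 to 5.97 FPKM. Psme1-ps1 had one of 0.44 (adjusted p = 0.0693 by limma) at 0.550 to 1.84 FPKM, and its values are uncertain because it is a copy of Psme1.

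Control libraries differed among themselves. NC replicate 3 was the highest NC library for 28 of the 38 genes (73.7%), against 41.9% of all genes tested. In the beta ring it was highest for 6 of 7 genes, and NC replicate 1 was lowest for 6 of 7. For Psma4, Psmc6, Psmd1, Psmd6, Psmd12 and Psme4 it was the lowest of the NC libraries. The median SD within a group, on the log2 scale, was 0.11 in NC and 0.06 with the antagomiR for the 38 genes, and 0.12 and 0.065 for all genes tested.

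Without NC replicate 3, 12 of the 38 genes rose and 1 fell, where 26.5% of all genes rose and 13.9% fell. The 12 were Psma6, Psmb3, Psmb4, Psmb6, Psmc2, Psmd1, Psmd2, Psmd4, Psmd13, Psmg3, Psmg4 and Psmf1, and the one that fell was Psmd5. Among these 12 the log2 fold changes ran from 0.16 for Psmd1 to 0.37 for Psma6, and Psmb6 was at 0.33 (limma adjusted p = 0.0132). The median of the 38 genes was then 0.125, against 0.06 for all genes. The leukocyte marker sum set the same library apart, and the part of those cells in these values was not tested.

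**Figure D4:**
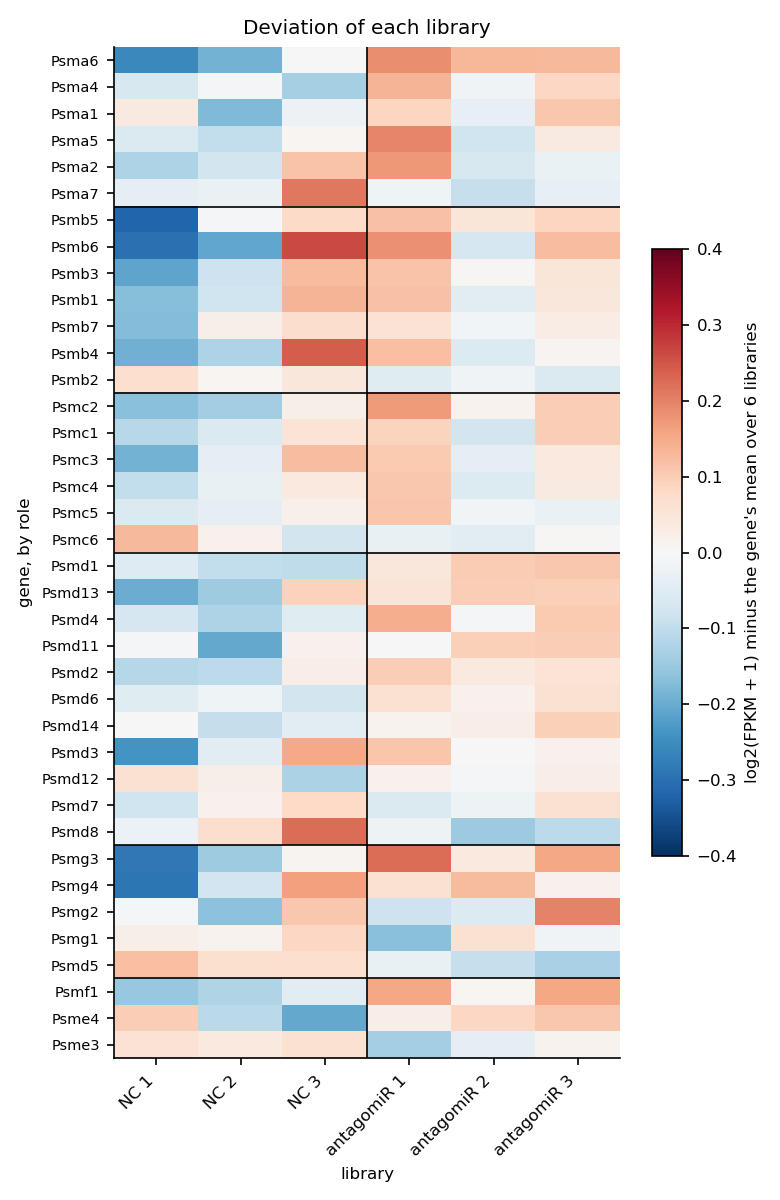
Difference of each library from the gene's mean over all 6 libraries, log2(FPKM + 1), for the 38 tested proteasome genes by role, with blue for lower and red for higher. NC replicate 1 is blue and NC replicate 3 red along most of the beta ring. The SD within a group is larger in NC for 25 of the 38 genes (65.8%), against 74.7% of all genes tested.

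Genes that work around the proteasome were taken from lists by function. Of 12 tested proteasome-associated and assembly factors without a Psm symbol 0 rose and 0 fell, and their median was 0.015 on the log2 scale. Over all genes tested 17.5% rose and 9.21% fell. Pomp, the maturation factor of the core, measured 41.5, 44.6 and 49.8 FPKM under the control oligonucleotide and 47.9, 42.1 and 46.3 FPKM under the antagomiR, and Adrm1, a ubiquitin receptor, had a log2 fold change of 0.02. The 4 with the smallest p, Txnl1 at -0.16, Fbxo7 at 0.32, Uchl5 at 0.20 and Sem1 at 0.16, had adjusted p between 0.0664 and 0.137 by limma. Txnl1 fell under both other scalings, to -0.23 with median ratios (adjusted p = 0.0202). Of 11 shuttle and segregase genes 1 rose, Ubqln2 by 0.22 (limma adjusted p = 0.0468). The segregase gene Vcp had a log2 fold change of 0.03. Stub1, at -0.16 (adjusted p = 0.181 by limma), was lower in every antagomiR library. It fell under quantile normalization (-0.21, adjusted p = 0.0325). Ubqln2 was 0.16 with median-ratio scaling (adjusted p = 0.127), and without NC replicate 1 or 2 or antagomiR replicate 2 or 3 its adjusted p was between 0.0908 and 0.157. Of 5 tested ubiquitin and activating enzyme genes 0 rose and 0 fell, with Ubb at 0.21 (adjusted p = 0.119 by limma). Ubb rose under quantile normalization (adjusted p = 0.0229). Without NC replicate 3, 1 of the 12 associated factors rose and 1 fell, and 2 of the 11 shuttle and segregase genes rose. Of the 5 ubiquitin and activating enzyme genes 3 rose in that fit, where 26.5% of all genes rose and 13.9% fell.

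Of 9 tested genes of proteasome transcription control 4 rose and 1 fell, beside 17.5% and 9.21% of all genes, and their median was -0.01 on the log2 scale. Nfe2l1 measured 85.9, 82.7 and 85.3 FPKM under the control oligonucleotide and 92.1, 94.8 and 97.0 FPKM under the antagomiR. Its rise of 0.16 (limma adjusted p = 0.0452) did not pass with median-ratio scaling, at 0.09 (adjusted p = 0.193). Nfe2l2, the related oxidative stress factor, measured 44.8, 43.0 and 46.3 FPKM under the control oligonucleotide and 55.3, 55.3 and 55.0 FPKM under the antagomiR, a log2 fold change of 0.30 (limma adjusted p = 0.0045). Both groups were tight. The partner genes Maff and Bach1, the latter a repressor at the same elements, rose by 0.72 and 0.65, and Mafk fell by 0.26. Mafk has 2 overlapping rows, of which 1 was tested, with 1854 to 2431 fragments a library against 31 to 44 for the other. How reads from the stretch they share were assigned is not known. Maff, Bach1, Mafk and Nfe2l2 kept their calls under both other scalings. Ddi2 and Ngly1, whose products process the Nfe2l1 protein, had log2 fold changes of -0.07 and -0.11 and did not pass, although Ngly1 fell under quantile normalization (-0.22, adjusted p = 0.0431).

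The products of Nfe2l1 and Nfe2l2 bind antioxidant response elements, and the upstream regions of the members were therefore searched for the core of that element, TGACNNNGC, on either strand. RefSeq promoter windows (GRCr8), from 250 bases before to 50 after the gene start, were found for 35 of the 39 proteasome genes. The core was present in 6 of these 35 (17.1%), in 12.1% of all 33469 windows and in 0 of the 5 inducible genes. The genes with a match were Psmb2, Psmb5, Psmb6, Psmd1, Psmd3 and Psme4, among them 1 of the 3 that rose. A match is a stretch of letters and was not tested as a binding site. The 250 bases before the start are shown, read toward the gene, for Psmd1, which rose, for the catalytic genes Psmb5 and Psmb6, which did not pass the test, and for their inducible partners Psmb8 and Psmb9, which rose without a match. Capitals mark the matches.
Psmd1, chr9:94157721-94157970, plus strand: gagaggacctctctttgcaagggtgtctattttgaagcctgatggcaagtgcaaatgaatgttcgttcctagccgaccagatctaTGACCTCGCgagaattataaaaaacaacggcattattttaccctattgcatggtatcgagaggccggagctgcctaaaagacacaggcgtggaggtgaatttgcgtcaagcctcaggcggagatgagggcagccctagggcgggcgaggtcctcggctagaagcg
Psmb5, chr15:32047380-32047629, minus strand: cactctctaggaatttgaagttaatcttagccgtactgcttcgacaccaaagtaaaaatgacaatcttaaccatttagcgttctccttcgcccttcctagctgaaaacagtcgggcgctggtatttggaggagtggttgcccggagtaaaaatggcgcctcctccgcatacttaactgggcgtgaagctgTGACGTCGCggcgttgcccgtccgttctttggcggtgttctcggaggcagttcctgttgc
Psmb6, chr10:55737638-55737887, plus strand: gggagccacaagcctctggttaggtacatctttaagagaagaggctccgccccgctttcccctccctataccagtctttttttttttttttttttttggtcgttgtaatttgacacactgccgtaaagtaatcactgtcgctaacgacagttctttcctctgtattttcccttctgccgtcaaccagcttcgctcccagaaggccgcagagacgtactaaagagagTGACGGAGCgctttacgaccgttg
Psmb8, chr20:4657032-4657281, minus strand: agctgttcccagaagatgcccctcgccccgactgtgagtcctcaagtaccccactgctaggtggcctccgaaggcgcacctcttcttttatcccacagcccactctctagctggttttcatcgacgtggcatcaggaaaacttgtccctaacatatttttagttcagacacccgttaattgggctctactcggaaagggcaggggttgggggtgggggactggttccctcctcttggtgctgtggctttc
Psmb9, chr20:4668750-4668999, plus strand: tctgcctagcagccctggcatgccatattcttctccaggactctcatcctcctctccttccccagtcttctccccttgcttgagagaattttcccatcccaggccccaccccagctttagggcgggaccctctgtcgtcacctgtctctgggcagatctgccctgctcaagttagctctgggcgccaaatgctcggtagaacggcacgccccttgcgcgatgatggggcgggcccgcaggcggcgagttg

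The match starts 165 bases before the start of Psmd1, 60 before that of Psmb5 and 24 before that of Psmb6. Psmd1 has another match 23 bases after its start, outside the stretch shown.

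The precision behind these values came from depth as well as from the replicates. Fragments per library ran from 171 for Psmg4 in NC replicate 1 to 6366 for Psmd2 in antagomiR replicate 2 among the 38 genes, for which counting error alone is 7.65% and 1.25%. RefSeq lists 40 pseudogenes of 16 of the 39 genes, 8 of them for Psmb3. Where such copies are near-identical, reads may have been split or shared between a gene and its copies, and the values of these 16 genes, Psma6, Psmb6, Psmb7, Psmd1 and Psmd8 among them, are uncertain to that extent.

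The counts were taken under each setting tried. Between 0 and 3 of the 38 genes rose and 0 to 2 fell in the fits over all 6 libraries. The median of the 38 genes stayed between 0.02 and 0.125 in the fits run, above that of all genes in each of them except the one without NC replicate 1, where it was 0.04 against 0.07.

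**Figure D5:**
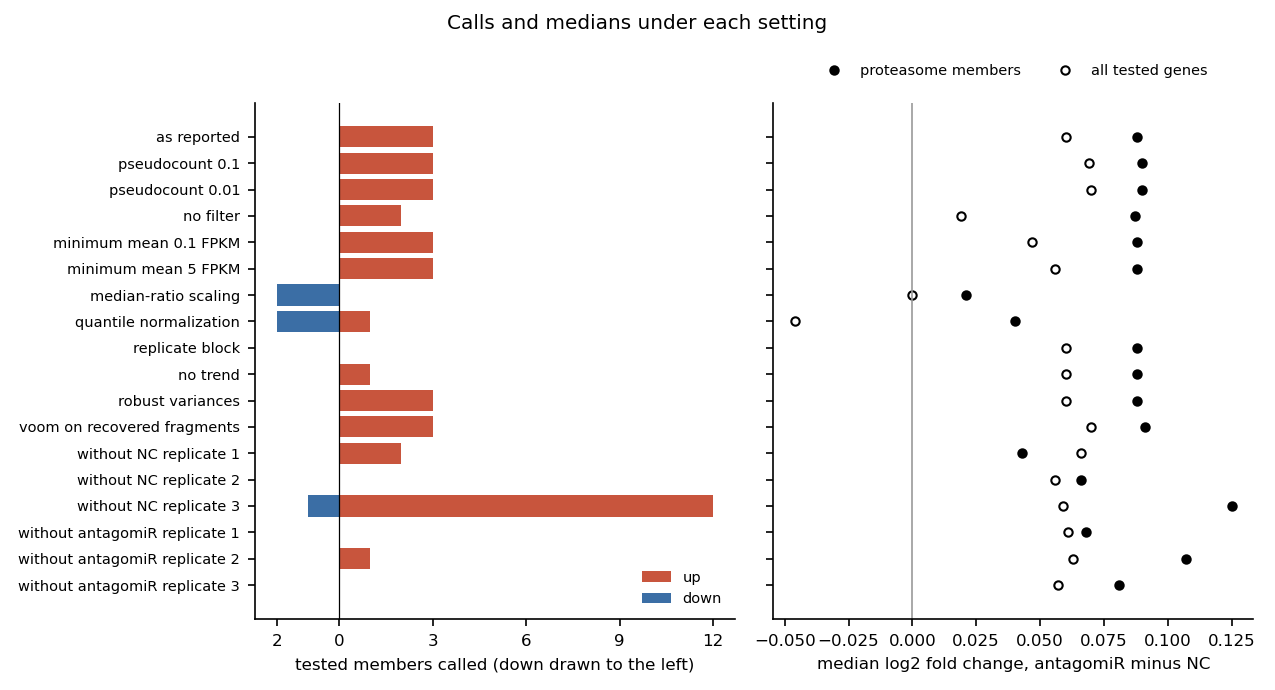
Left, number of the tested proteasome genes called up or down under each setting, and right, the median log2 fold change of these genes (filled) and of all tested genes (open). The fit without NC replicate 3 gives 12 genes up and 1 down, and the fits over all 6 libraries give at most 3 up and 2 down.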

How the data were processed

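The deposited values are FPKM in 1 table of 30560 genes with coordinates in mRatBN7.2, made by the authors with 1 column per library. Per the submitters' processing notes, HISAT2 and HTSeq were used along with FastQC, cutadapt and edgeR, with no version named. Their order, the release of the annotation and whether strand was used are not given in the sources used here, so overlapping and antisense genes cannot be told apart. Reads were paired, of 150 bp, from polyA-selected RNA, per the labels' protocols. Columns were matched to libraries by title, and 0 columns were left unassigned.

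Whole fragments were recovered from the FPKM values with library totals read from genes under 400 bp. A length making all 6 values whole within 0.01 fragments was found for 100% of 20134 genes above 0. Limma 3.58.1 in R 4.3.3 was fitted on log2(FPKM + 1), antagomiR minus NC, by lmFit and trended eBayes, to genes averaging 1 FPKM or more, without a replicate block. That scale understates changes of low genes, such as Psmb9, at 2.08 with a pseudocount of 1 and 2.61 with 0.01, and Psme1-ps1. The scripts were tested on simulated data.

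The members and gene lists were chosen with earlier results of these data known. Named genes were, in each role group, the 2 with the smallest p and the highest and lowest log2 fold change, called genes of at least 0.3 in size, Psmb5 to Psmb7, the 5 inducible genes, and up to 4 genes with the smallest p of each pathway list. Other members, and Nfe2l1, Pomp, Adrm1, Vcp, Ddi2 and Ngly1, were named for their role after their values were seen. The range of level used for a background was chosen after seeing the data. Alternatives were other pseudocounts, filters, scalings and variance settings, a replicate block, voom and leaving out each library.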

Additional observations from a re-analysis of the deposited data

How the results depend on the processing

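Over all genes 3216 were called (2109 up, 1107 down), and quantile normalization gave 1869 down. Leaving out 1 library gave 1883 to 4862 called, 1216 to 3185 up and 667 to 1677 down. For the proteasome genes, 3 up and 0 down became 0 and 2 with median-ratio scaling, where their median was 0.021, 1 and 2 with quantile normalization, 1 and 0 without a trend, and 0 and 0 with the replicate block. Leaving out 1 library gave 0 to 12 up and 0 to 1 down, with 0 up without NC replicate 2 or antagomiR replicate 1 or 3, 1 without antagomiR replicate 2, 2 without NC replicate 1 and 12 without NC replicate 3. For all of these the cause was not tested. The 5 ratios of inducible to constitutive genes kept their sign without any single library and with a pseudocount of 0.1.

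No label says what a replicate number shares, so the numbers were not taken to pair the libraries. Deviations of equally numbered replicates from their group means correlated at -0.16, -0.06 and -0.04. With 3 libraries per group these correlations cannot decide the pairing. With the replicate block 2380 genes were called, 1571 up and 809 down. The 40 named genes were refitted in every setting that kept them (Psmc3ip did not reach a mean of 5 FPKM), which left 619 outcomes as reported, ended 37 calls and added 23. Depth limits Psma8 and Mir142, with at most 8 fragments a library. No result met the rules for a closer look, which do not test groups of 3.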
